A study of Mus musculus with 13 samples.

Results

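The collagen chain genes are the genes whose array symbol has the form Col, a type number, the letter a and a chain number. The array annotation names 37 of them among 16593 gene symbols, through 59 probes. For each gene the brightest probe by mean over all arrays was taken. RNA from 13 mouse samples, labelled C57BL/6 throughout, was hybridised to single-colour Illumina bead arrays. Islet progenitors of the pancreas were sampled at the start (day 0, n = 4), after 1 day (n = 3) and at day 4 (n = 2). Adult islets (n = 2) carry the label positive control and W9.5 embryonic stem cells (n = 2) the label negative control. The series gives the molecular mechanisms of differentiation as its subject and calls the progenitors purified. The labels used here give neither the age of the animals, the way of purification, the culture nor whether replicates came from separate animals or cultures, so the p-values rest on sample-to-sample spread that may be technical.

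Collagens are built from 3 polypeptide chains wound into a triple helix, each chain from its own gene. Fibrillar chains form the banded fibres of connective tissue and are made mainly by mesenchymal cells. Type IV chains form the sheet-like network of basement membranes, on which endothelial and epithelial cells sit. Islet endocrine cells face the basement membrane of the islet's capillaries. Other chains coat fibrils (the FACIT group, fibril-associated collagens with interrupted triple helices), form beaded microfilaments (type VI), span the cell membrane, or carry heparan sulphate in basement membranes (the multiplexins, types XV and XVIII).

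Of the 37 genes, 24 lay above the background level on at least 2 arrays and were tested with 10363 genes in all. The background level, a log2 intensity of 7.24, is the mode of the deposited values plus 5 times their spread below the mode. Measured were 8 of 11 fibrillar chains (Col1a1, Col1a2, Col2a1, Col3a1, Col5a1, Col5a3, Col11a2 and Col24a1), 3 of 6 type IV chains (Col4a1, Col4a2 and Col4a5) and 4 of 6 FACIT chains (Col9a1, Col9a2, Col14a1 and Col16a1). Measured too were 2 of 3 type VI chains (Col6a1 and Col6a2), both multiplexins (Col15a1 and Col18a1), 3 of 4 transmembrane chains (Col17a1, Col23a1 and Col25a1), and Col7a1 and Col26a1 of 3 others. The 13 not measured, at 6.87 to 7.39 on every array, were Col5a2, Col11a1, Col27a1, Col4a3, Col4a4, Col4a6, Col9a3, Col19a1, Col6a6, Col8a2, Col10a1, Col13a1 and Col28a1. Col5a2, Col27a1 and Col4a3 of these were above background on 1 array each. Of the type IV chains outside the main protomer, Col4a3, Col4a4 and Col4a6 could thus not be measured. The 24 genes passed because they were above background somewhere, so counts over them describe these 24 and not all collagens.

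The arrays were alike in the share of probes above background, 44.1 to 46.4%. Labels and markers matched in broad terms. At day 0, 7 of 7 pluripotency genes were lower than in embryonic stem cells (limma adjusted p under 0.05, 22.8% of all genes). Of islet endocrine genes, 10 of 11 were higher (26.6% of all genes). Nanog, Esrrb and Dppa3 were above background on no pancreatic array. On each embryonic stem cell array 1 of the 11 endocrine genes was above background. Genes of both lists were thus tested only because of the groups where they are high, so these counts check the labels only in part. Some arrays stood apart in markers of other cells. In embryonic stem cells the mesenchymal proteoglycan decorin (Dcn) was 12.09 on replicate 1 and 7.82 on replicate 2. The mean log2 level of 9 acinar genes ran from 9.32 (replicate 3) to 11.37 at day 0, from 10.14 to 11.56 (replicate 2) at day 1, and was 13.10 and 12.77 in adult islets. In bulk samples fewer cells of a type and less RNA per cell cannot be told apart.

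Upstream sequences of the genes the results turn on are shown here. They are credited to RefSeq (build GRCm38.p6), run 5′ to 3′ along the gene's strand and end at the base before the annotated start. Capitals mark GGGCGG (the GC box of the factor Sp1), CCAAT and TATAAA on either strand. Col9a2 (chr4:121039316-121039565, plus strand) is shown because its level differed most between groups. Col3a1 (chr1:45311288-45311537, plus strand) and Col1a2 (chr6:4505368-4505617, plus strand) are shown as fibrillar chains that were highest at day 0 on the same array.
Col9a2: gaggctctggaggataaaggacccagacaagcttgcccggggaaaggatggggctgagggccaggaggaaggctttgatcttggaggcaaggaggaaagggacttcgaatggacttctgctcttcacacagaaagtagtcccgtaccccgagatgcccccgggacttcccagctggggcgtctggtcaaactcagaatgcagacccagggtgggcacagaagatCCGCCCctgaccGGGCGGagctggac
Col3a1: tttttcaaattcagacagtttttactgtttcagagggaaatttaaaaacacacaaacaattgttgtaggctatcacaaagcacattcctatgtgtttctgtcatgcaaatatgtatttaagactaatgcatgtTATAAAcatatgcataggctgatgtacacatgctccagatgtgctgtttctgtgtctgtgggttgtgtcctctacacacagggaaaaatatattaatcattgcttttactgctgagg
Col1a2: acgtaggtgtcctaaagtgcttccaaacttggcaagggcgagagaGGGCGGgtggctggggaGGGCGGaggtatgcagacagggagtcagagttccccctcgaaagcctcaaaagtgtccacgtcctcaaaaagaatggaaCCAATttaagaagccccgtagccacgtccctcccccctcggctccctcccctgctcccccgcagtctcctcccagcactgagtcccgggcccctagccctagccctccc
Col9a2 has GGGCGG beginning 14 bases before the start and its reverse complement beginning 26 bases before it, and neither CCAAT nor TATAAA. Col3a1 has TATAAA beginning 117 bases before the start. Col1a2 has GGGCGG at 205 and 188 bases and CCAAT at 109. None of these sites overlap. Windows of this length were at hand for 20 of the 24 measured genes (23 windows, some genes having several starts). GGGCGG occurred in 14 of the 23 (60.9%, against 32.7% of 32851 windows of all genes), CCAAT in 11 (47.8% against 33.8%), TATAAA in 3 (13% against 12.4%) and the E box CANNTG in 12 (52.2% against 66.2%). The windows of the measured collagens had a median GC content of 59.2%, against 52.4% for all, and a match in letters is a description only.

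The 2 genes of the main type IV protomer, Col4a1 and Col4a2, lie head to head on chromosome 8, and their annotated starts overlap by 22 bases (chr8:11312805-11312826, plus strand, GRCm38.p6). The shared stretch is shown because it holds the first annotated bases of both genes, which run through it in opposite directions. GGGCGG is again in capitals.
Col4a1/Col4a2 shared start: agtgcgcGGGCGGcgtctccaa
Col4a6 and Col4a5 are placed likewise on the X chromosome, with 1342 bases between their annotated starts.

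Few collagen chains passed a test, which does not show a lack of change. Groups held 2 to 4 arrays, and many chains lay near background or far apart between replicates. The 11 calls among the pancreatic groups came from 6 genes, Col9a2 4 times and Col26a1 3 times, and 10 of them rest on the same 4 day 0 arrays. At day 1 against day 0, 2 of the 24 fell (Col9a2 and Col26a1) and 0 rose, where 2.36% of all tested genes fell and 2% rose. At day 4 against day 1, 0 passed in limma (0.994% of all genes rose, 0.56% fell), and 2 had an unadjusted p under 0.05, Col26a1 and Col4a1. Without day 1 replicate 1, Col4a1 passed in that comparison (-1.59, adjusted p = 0.0405), and in each of the other alternatives the count was 0. At day 4 against day 0, 3 fell (Col9a2, Col26a1 and Col4a1) and 0 rose, against 6.06% and 5.4% of all genes. In adult islets, 1 was lower than at day 4 (Col9a2; all genes 6.94% lower, 7.54% higher). Against day 0, 5 were lower in adult islets (Col9a2, Col18a1, Col26a1, Col2a1 and Col4a5; all genes 19.4% lower, 14.7% higher), a share near that of all genes. Day 0 progenitors had 4 chains higher than embryonic stem cells (Col9a2, Col26a1, Col15a1 and Col4a5; all genes 26.6%) and 1 lower (Col18a1; 22.8%). Adult islets had 1 chain lower than embryonic stem cells (Col18a1; 23.8%) and 0 higher (23.3%). The median difference of the 24 was -0.39 in adult islets against day 0 (all genes -0.07), -0.29 at day 4 against day 0 (all genes -0.03) and 0.24 at day 0 against embryonic stem cells (all genes 0.05).

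**Figure D1:**
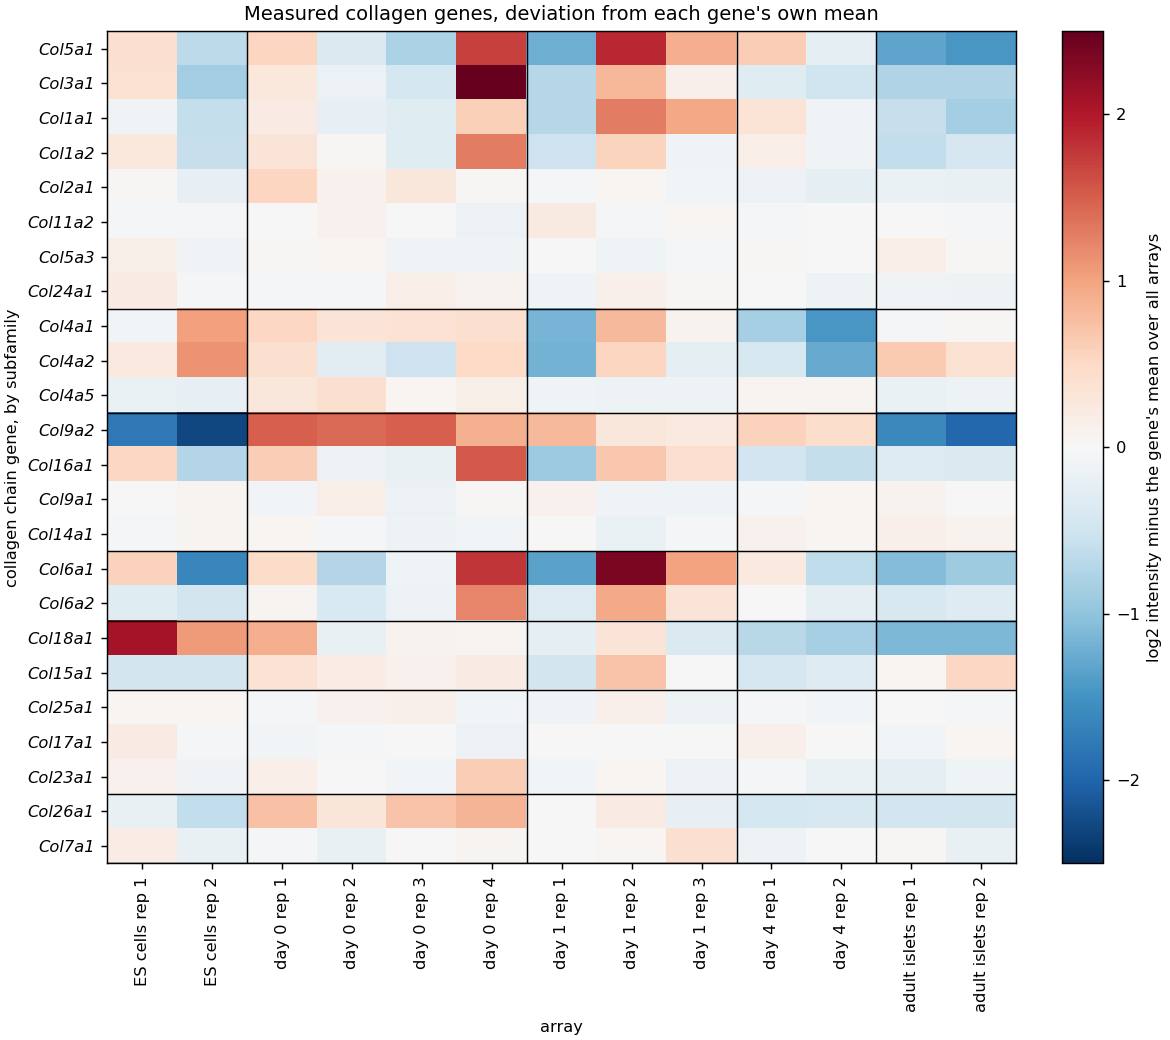
Log2 intensity of the 24 measured collagen genes (vertical axis, grouped by subfamily) on the 13 arrays (horizontal axis, grouped by sample group) as the deviation from each gene's own mean. Col9a2 is high on all 9 progenitor arrays and low on the 4 others, and several fibrillar and type VI chains are high on day 0 replicate 4 and day 1 replicate 2.

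Col9a2, a chain of the FACIT collagen type IX known from cartilage, was high in progenitors and near background in the other groups. It stood at 10.94, 10.86, 10.95 and 10.34 on the day 0 arrays, at 10.27, 9.73 and 9.70 at day 1, and at 10.02 and 9.90 at day 4. It was 7.84 and 7.49 in adult islets and 7.67 and 7.18 in embryonic stem cells. All 9 progenitor arrays lay above all 4 others, and the day 1 and day 4 arrays lay below those of day 0. The mean at day 0 was 10.77 ± 0.29 (SD, n = 4). Relative to it Col9a2 was 8.63-fold lower in adult islets (log2 difference -3.11, SE 0.22, limma adjusted p = 2.80e-06) and 10.2-fold lower in embryonic stem cells (adjusted p = 5.85e-07). From day 4 to adult islets it was 4.92-fold lower (-2.30, SE 0.26, adjusted p = 1.85e-04). These 3 calls held in all 23 alternative analyses (other filters, scalings, probes and variance models, and arrays left out). Within the progenitors Col9a2 fell by 0.87 at day 1 (SE 0.20, adjusted p = 0.033) and by 0.81 at day 4 (SE 0.22, adjusted p = 0.0414), both against day 0. The day 1 call was lost without any one of day 0 replicates 1, 2 and 3, day 1 replicates 2 and 3 and day 4 replicates 1 and 2 (-0.87 to -0.77, adjusted p 0.0589 to 0.14). The day 4 call was lost without any one of day 0 replicates 1, 2 and 3, day 1 replicate 3, day 4 replicates 1 and 2 and adult islet replicates 1 and 2 (-0.87 to -0.75, adjusted p 0.0511 to 0.267). Its protein's partners Col9a1 and Col9a3, which join it in the type IX trimer, were near or below background: Col9a1 ranged from 7.09 to 7.39 over the 13 arrays and Col9a3 was not measured.

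**Figure D2:**
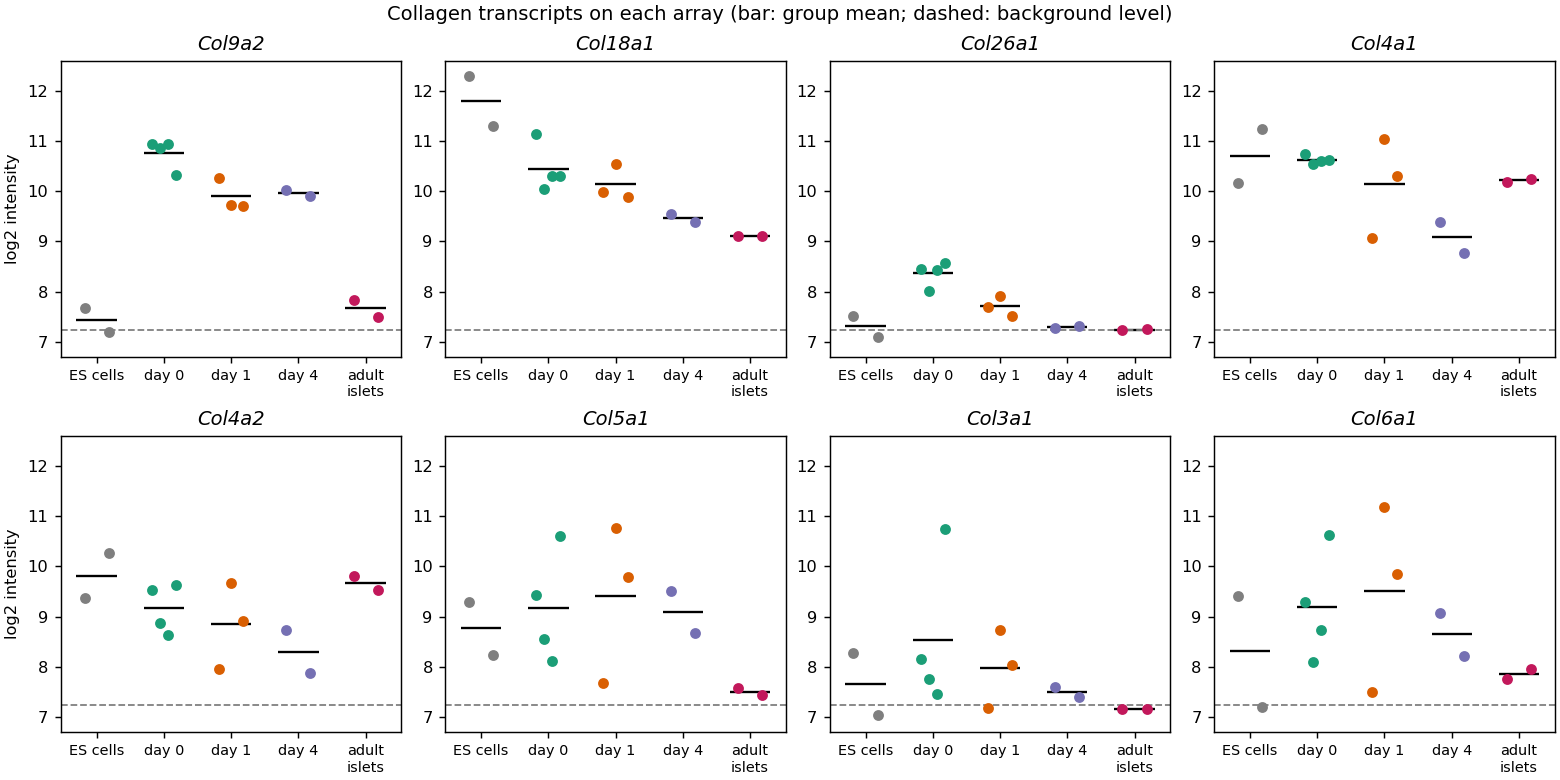
Log2 intensity (vertical axis) of 8 collagen genes on each array, 1 panel per gene, with groups along the horizontal axis, a bar at the group mean and a dashed line at the background level of 7.24. Col9a2 and Col26a1 are highest at day 0, Col18a1 in embryonic stem cells, and Col5a1, Col3a1 and Col6a1 spread over more than 2 log2 units within day 0.

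Col26a1, which encodes a small collagen-like protein first described in testis and ovary of the mouse, was highest at day 0. Its day 0 values were 8.44, 8.01, 8.43 and 8.57, and those of day 1 were 7.70, 7.92 and 7.51. It was 7.27 and 7.30 at day 4, 7.22 and 7.25 in adult islets and 7.52 and 7.09 in embryonic stem cells. Every day 0 array lay above every other array, and the day 4 and adult values were at the background level. Against day 0 it was 2.11-fold lower at day 4 (-1.08, SE 0.17, adjusted p = 0.0036) and 2.19-fold lower in adult islets (-1.13, SE 0.17, adjusted p = 5.91e-04). Against embryonic stem cells day 0 was 2.09-fold higher (1.06, SE 0.17, adjusted p = 4.29e-04). The fall at day 1 was 0.66 (SE 0.15, adjusted p = 0.0382). That day 1 call was lost without any one of day 0 replicates 1, 3 and 4, day 1 replicates 1 and 3 and both arrays of day 4 and of adult islets (adjusted p 0.0632 to 0.16). The day 4 call was lost without day 4 replicate 1 (-1.06, adjusted p = 0.0564).

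Col18a1, the basement membrane collagen whose end fragment is endostatin, had successively lower group means from embryonic stem cells to adult islets. It was 12.31 and 11.30 in embryonic stem cells, 11.14, 10.04, 10.31 and 10.30 at day 0, and 9.99, 10.55 and 9.88 at day 1. It was 9.54 and 9.40 at day 4 and 9.11 and 9.12 in adult islets. The day 0 and day 1 arrays overlapped, and no other neighbouring groups did. Day 0 was 2.56-fold lower than embryonic stem cells (-1.35, SE 0.33, adjusted p = 0.00512), and adult islets were 6.45-fold lower (-2.69, SE 0.38, adjusted p = 1.32e-04). Adult islets were 2.52-fold lower than day 0 (-1.34, SE 0.33, adjusted p = 0.009), while day 4 against day 0 did not pass (-0.98, SE 0.33, adjusted p = 0.0771). Without embryonic stem cell replicate 1 the call of day 0 against these cells was lost (-0.85, adjusted p = 0.0857), and without either adult array that of adult islets against day 0 (adjusted p 0.0623 and 0.0641). Without either embryonic stem cell array, day 4 against day 0 passed (adjusted p = 0.0448). A second Col18a1 probe, above background on 10 arrays, gave smaller differences: -0.93 at day 0 against embryonic stem cells and -0.23 in adult islets against day 0. The other one was above background on 1 array only.

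Its relative Col15a1, a multiplexin of capillary and muscle basement membranes, was not above background on either embryonic stem cell array (both 6.96) or day 4 array (6.998 and 7.10). It was 7.79, 7.61, 7.52 and 7.63 at day 0, 6.97, 8.14 and 7.42 at day 1 and 7.48 and 7.93 in adult islets. Day 0 was at least 1.32-fold higher than embryonic stem cells (adjusted p = 0.0441). The call was lost without any one of both embryonic stem cell arrays, the 4 day 0 arrays, day 1 replicate 3 and both day 4 arrays (adjusted p 0.0551 to 0.145), and also after median scaling and cyclic loess. Day 4 was at least 1.38-fold below adult islets and at least 1.32-fold below day 0, and neither difference passed (adjusted p = 0.175 and 0.16). Both passed without day 1 replicate 2 (adjusted p = 0.0362 and 0.0369).

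The type IV chains Col4a1 and Col4a2, which assemble into the main protomer of basement membranes, had their lowest group mean at day 4. Col4a1 was 10.74, 10.55, 10.60 and 10.63 at day 0, 9.06, 11.04 and 10.31 at day 1, 9.40 and 8.77 at day 4, and 10.19 and 10.25 in adult islets. It was 10.17 and 11.25 in embryonic stem cells. Both day 4 arrays lay below all arrays of day 0, of adult islets and of embryonic stem cells, but day 1 replicate 1 lay between them. Col4a1 was 2.92-fold lower at day 4 than at day 0 (-1.55, SE 0.45, adjusted p = 0.0476). The call was lost without any one of the 4 day 0 arrays, day 1 replicate 3, either day 4 array or either adult array (-1.86 to -1.23, adjusted p 0.0651 to 0.341). Against day 4, adult islets had a difference of 1.14 (SE 0.51, adjusted p = 0.186), which passed without day 1 replicate 1 (adjusted p = 0.0499).

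Col4a2 was 9.53, 8.88, 8.63 and 9.64 at day 0, 7.95, 9.67 and 8.91 at day 1, 8.73 and 7.88 at day 4, 9.80 and 9.53 in adult islets and 9.37 and 10.26 in embryonic stem cells. Day 4 overlapped with day 0 and day 1 and lay below adult islets and embryonic stem cells. None of its differences passed: -0.86 at day 4 against day 0 (SE 0.46, adjusted p = 0.257), 1.36 in adult islets against day 4 (SE 0.53, adjusted p = 0.122) and 0.50 in adult islets against day 0 (SE 0.46, adjusted p = 0.437). Col4a5, a chain of a minor protomer, was above background on all 4 day 0 arrays (7.48, 7.59, 7.24 and 7.35) and both day 4 arrays (7.26 and 7.27) only. It was 7.09, 7.06 and 7.06 at day 1, 7.02 and 7.07 in adult islets and 7.04 and 6.98 in embryonic stem cells. Day 0 was at least 1.13-fold higher than adult islets (adjusted p = 0.019) and than embryonic stem cells (adjusted p = 0.0074). Without either adult array the first call was lost (adjusted p 0.0811 and 0.122), and both were lost when only the arrays of the groups compared were fitted (adjusted p = 0.0689 and 0.0555). Day 1, at least 1.13-fold below day 0, did not pass (adjusted p = 0.0613), but did without a filter, with an intensity trend, after background subtraction and without day 0 replicate 3 (adjusted p 0.0393, 0.0197, 0.0168 and 0.0318).

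Among the fibrillar chains, 1 of 8 passed in any comparison, and replicates of a group lay far apart. The 1 was Col2a1, lower in adult islets than at day 0, where 19.4% of all genes were lower. Col5a1, the type V chain that nucleates fibrils of types I and III, was 9.44, 8.54, 8.11 and 10.60 at day 0, 7.68, 10.77 and 9.80 at day 1 and 9.51 and 8.68 at day 4. It was 7.57 and 7.43 in adult islets and 9.29 and 8.23 in embryonic stem cells. Both adult arrays lay below all other arrays, and the 3 progenitor groups overlapped. The difference of adult islets was -1.67 from day 0 (SE 0.81, adjusted p = 0.138) and -1.59 from day 4 (SE 0.94, adjusted p = 0.331), and neither passed.

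Col3a1, the type III chain of pliable tissues, was 8.16, 7.75, 7.45 and 10.74 at day 0, 7.18, 8.73 and 8.03 at day 1, 7.60 and 7.40 at day 4 and 8.27 and 7.03 in embryonic stem cells. Adult islets, at 7.14 and 7.15, were not above background. The 10.74 on day 0 replicate 4 is more than 2 log2 units above the other day 0 arrays. Adult islets were at least 2.44-fold below day 0 by the group means, which did not pass (adjusted p = 0.198). Without that array the fitted difference, which is not a bound, went from -1.38 to -0.64. A second Col3a1 probe was not above background on any array.

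Col1a1 and Col1a2 encode the chains of type I, the main collagen of connective tissue. Col1a1 was 8.03, 7.62, 7.53 and 8.42 at day 0, 7.10, 9.09 and 8.79 at day 1, 8.17 and 7.73 at day 4, 7.25 and 6.97 in adult islets and 7.73 and 7.22 in embryonic stem cells. Col1a2 was 8.01, 7.72, 7.39 and 8.96 at day 0, 7.17, 8.24 and 7.59 at day 1, 7.86 and 7.60 at day 4, 7.08 and 7.26 in adult islets and 7.94 and 7.10 in embryonic stem cells. For both, the adult arrays lay below all arrays of day 0 and day 4 and overlapped with embryonic stem cells. Neither passed in adult islets against day 0 (-0.79 and -0.85, adjusted p = 0.218 and 0.133) or against day 4 (-0.84 and -0.56, adjusted p = 0.376 and 0.532). Without day 1 replicate 1 Col1a1 passed against day 0 (adjusted p = 0.0391), and Col1a2 did once day 1 replicate 2 and day 0 replicate 3 were both left out (-1.06, adjusted p = 0.0478).

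Col2a1, the cartilage type II chain, was 7.85, 7.41, 7.59 and 7.33 at day 0, 7.27, 7.36 and 7.24 at day 1, and 7.33 and 7.11 in embryonic stem cells. It was not above background at day 4 (7.15 and 7.06) or in adult islets (7.14 and 7.12). Day 0 was at least 1.24-fold higher than adult islets (adjusted p = 0.037). The call was lost without any one of day 0 replicates 1 and 3, day 1 replicate 3, both day 4 and both adult arrays (adjusted p 0.05 to 0.167). It was also lost when the mean of the gene's passing probes replaced the brightest (adjusted p = 0.083). Col5a3, Col11a2 and Col24a1 stayed between 6.96 and 7.44 on all arrays and passed in no comparison.

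The type VI chains form beaded microfilaments around cells and joined the fibrillar chains in their spread. Col6a1 was 9.30, 8.10, 8.74 and 10.62 at day 0, 7.50, 11.19 and 9.85 at day 1, 9.08 and 8.21 at day 4, 7.76 and 7.94 in adult islets and 9.41 and 7.20 in embryonic stem cells. Adult islets lay below all day 0 and day 4 arrays, with differences of -1.34 (SE 0.96, adjusted p = 0.309) and -0.79 (SE 1.10, adjusted p = 0.751). A second Col6a1 probe, above background on all 13 arrays, gave smaller differences of -0.72 and -0.63. At day 4 against day 0 it gave -0.09, where the probe used gave -0.55. A further Col6a1 probe was not above background on any array. Col6a2 ranged from 7.03 in embryonic stem cells to 8.71 on day 0 replicate 4 and passed in no comparison. Col16a1, a FACIT chain, ranged from 7.52 on day 1 replicate 1 to 9.97 on day 0 replicate 4 and did not pass either. Col7a1, the anchoring fibril chain, was above background on all 13 arrays at 7.25 to 7.85. The FACIT chain Col14a1 and the transmembrane chains Col17a1, Col23a1 and Col25a1 were above background on 2 or 3 arrays each, the highest value being 7.70 for Col23a1 on day 0 replicate 4, and passed in no comparison.

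Fibrillar and type IV chains were set side by side by their differences, with no test between the subfamilies. At day 4 against day 0 the median difference was -0.09 over 8 fibrillar chains and -0.86 over 3 type IV chains. There 0 and 1 were called, the 1 lower (all genes 6.06% lower, 5.4% higher). In adult islets against day 4 the medians were -0.19 and 1.14, and all genes had a median of -0.04. There 0 were called in either (all genes 6.94% lower, 7.54% higher). In adult islets against day 0 the medians were -0.60 and -0.37, with 1 called lower in each (all genes 19.4% lower). In that comparison 7 of 8 fibrillar differences were below 0. Type IV was split, with Col4a2 above 0 and Col4a1 and Col4a5 below. The fibrillar medians and counts include chains near background, whose differences are not resolved. Col5a3, Col11a2 and Col24a1 were above background on 2, 3 and 2 arrays, and Col2a1 was not at day 4 or in adult islets. At day 4 against day 0 Col1a1, Col1a2, Col3a1 and Col5a1 were at 0.05, -0.29, -1.03 and -0.08. Each type IV median is the value of 1 gene.

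**Figure D3:**
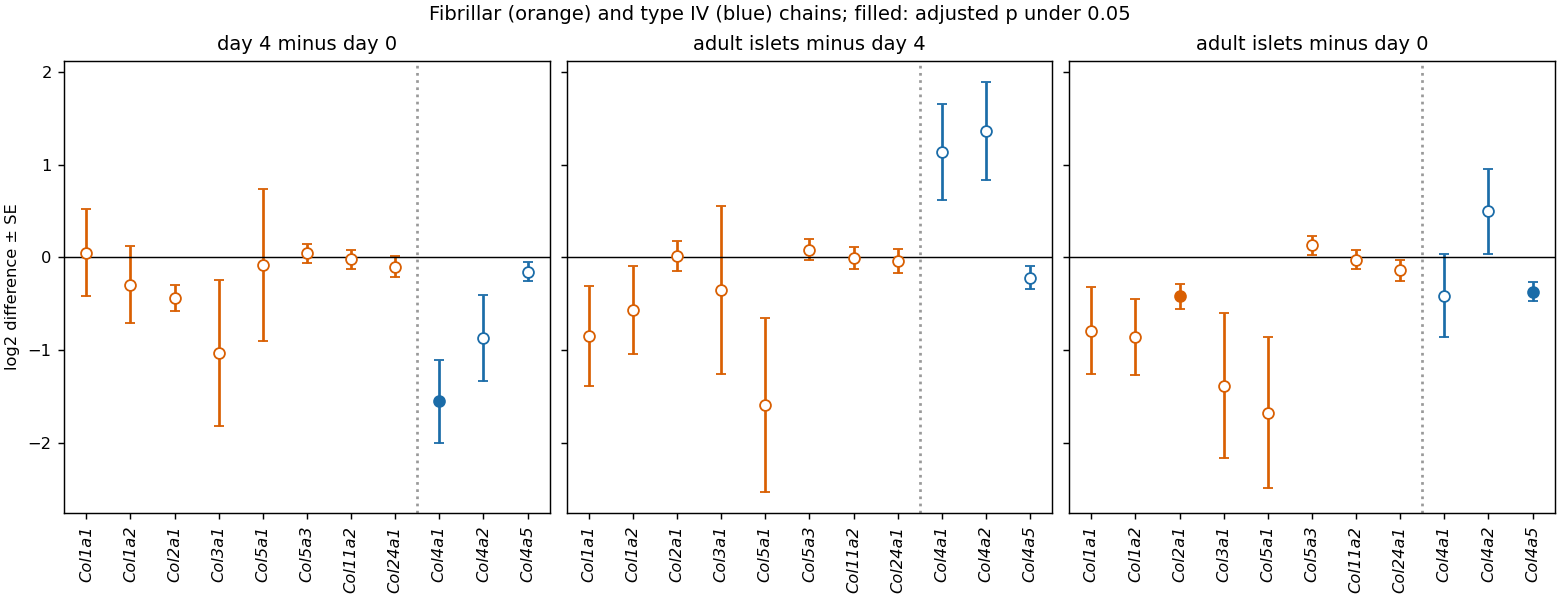
Log2 difference (vertical axis, bars are SE) of 8 fibrillar chains (orange) and 3 type IV chains (blue) in 3 comparisons, 1 panel each. Filled points have an adjusted p under 0.05, and in adult islets against day 4 Col4a1 and Col4a2 lie above 0 while the 4 fibrillar chains farthest from 0 lie below.

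The calls depended on which arrays were fitted. When the 2 adult and 2 day 4 arrays alone were fitted, 9 of the 24 chains passed. The log2 differences were those of the main fit (Col5a1 -1.59, Col4a1 1.14). What differed was the spread, estimated from these arrays only, and why the spreads differ was not tested. Col4a1 (adjusted p = 0.00486), Col4a2 (0.00799) and Col15a1 (0.0161) were then higher in adult islets. Col9a2 (7.49e-05), Col5a1 (0.00349), Col1a1 (0.00858), Col1a2 (0.0122), Col18a1 (0.0228) and Col3a1 (0.031) were lower. In that fit 16.5% of all genes were called higher and 22.7% lower, so 3 and 6 of 24 are shares near those of all genes.

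Within groups the collagens tended to share their highest array. Of the 24, 11 were highest at day 0 on replicate 4, which was highest for 20.2% of all genes. At day 1, 16 were highest on replicate 2 (44.4% of all genes) and 13 were lowest on replicate 1 (39.7%). Replicate 1 was the higher for 18 at day 4 (47.9% of all genes) and for 19 in embryonic stem cells (50.5%). Within each progenitor group, mesenchyme markers and fibrillar chains put the arrays in the same order. Their group means went apart. At day 0, day 1 and day 4 these were 7.88, 8.05 and 8.10 for the markers and 7.83, 7.77 and 7.60 for the fibrillar chains. The mean log2 level of 12 mesenchyme markers of 14 listed was 7.96, 7.64, 7.49 and 8.42 at day 0, and that of the 8 fibrillar chains 7.87, 7.58, 7.45 and 8.42. At day 1 the values were 7.49, 8.45 and 8.22 for the markers and 7.25, 8.21 and 7.87 for the fibrillar chains. At day 4 they were 8.22 and 7.98 against 7.72 and 7.48. In adult islets the markers were 8.01 and 8.09 while the fibrillar chains were at 7.22 and 7.16, below every day 0 and day 4 array. The markers passed in no comparison among the pancreatic groups (0 of 12), where 0.56 to 19.4% of all genes passed in either direction. Nkx3-2, a marker of pancreatic mesenchyme, was not above background on any array. The part of mesenchymal cells in the fibrillar values was not tested.

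Endothelial markers were high in the adult islets, where the Col4a1 and Col4a2 values lay above those of day 4. Day 0 and embryonic stem cells did not share this. There the type IV chains had a mean level of 9.07 and 9.18, against 8.98 in adult islets. The endothelial markers were at 7.80 and 8.05, against 9.44. The mean level of 10 endothelial markers of 13 listed was 9.45 and 9.42 in adult islets, 7.49 and 7.43 at day 4, 7.24, 7.58 and 7.41 at day 1 and 7.40 to 8.31 at day 0. Of the 10, 9 were higher in adult islets than at day 4 (median difference 1.99; all genes 7.54% higher) and 9 higher than at day 0 (median 1.36; all genes 14.7%). Plvap, of fenestrated capillaries, was at least 14.8-fold higher in adult islets than at day 4 (adjusted p = 2.42e-04), and Pecam1 at least 2.47-fold higher (adjusted p = 8.29e-04). Of the 10, between 4 and 10 were above background on the day 0 arrays, 2, 5 and 4 at day 1, 4 and 3 at day 4, and all 10 on both adult arrays. The part of endothelial cells in the type IV values was not tested.

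**Figure D4:**
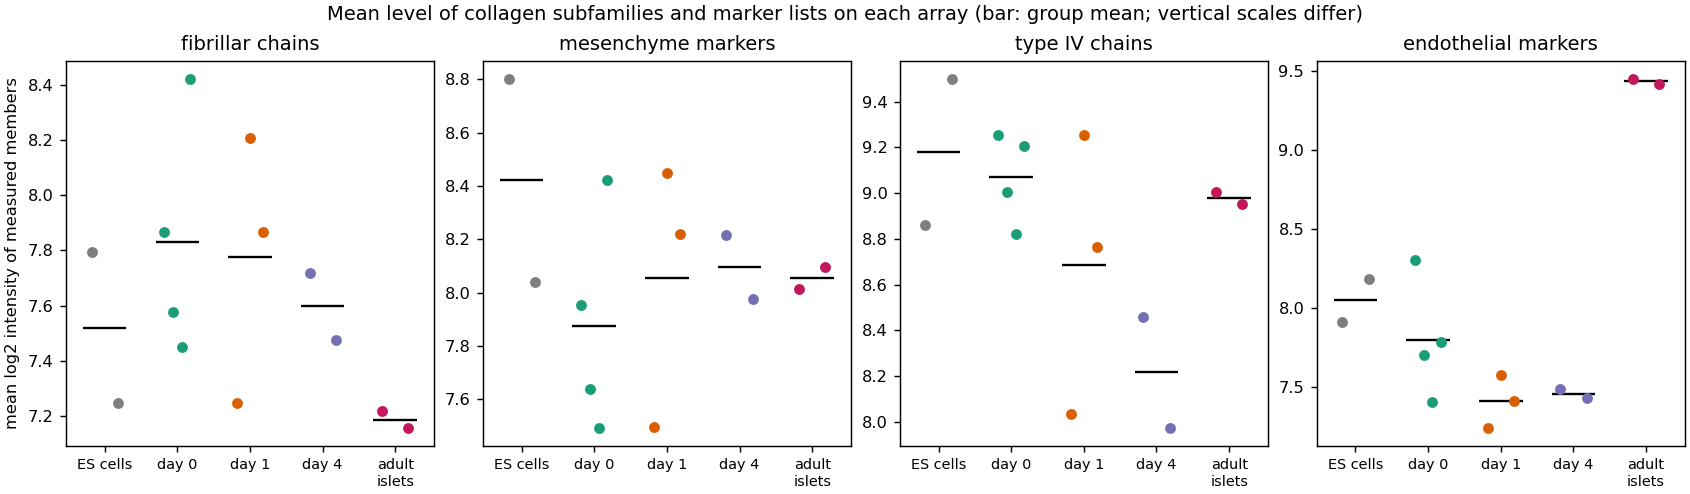
Mean log2 intensity (vertical axis, scales differ) on each array of the 8 fibrillar chains, 12 mesenchyme markers, 3 type IV chains and 10 endothelial markers, by group along the horizontal axis, with a bar at the group mean. Fibrillar chains are lowest in adult islets, where endothelial markers are at 9.42 and 9.45, and type IV chains have their lowest mean at day 4.

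Markers of other cells touched the embryonic stem cell arrays too. Replicate 1 had higher levels than replicate 2 of the mesenchyme markers as a whole (8.80 and 8.04), and replicate 2 had higher Col4a1, Col4a2 and Lama1, a laminin chain of early basement membrane (11.72, against 10.16). Collagen calls lost without 1 of these arrays are given with each gene.

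Enzymes modify and fold collagen chains in the endoplasmic reticulum. Of 16 measured, 5 were lower and 1 higher in adult islets than at day 0, where 19.4% of all genes were lower and 14.7% higher. The lower ones included Serpinh1, the collagen chaperone (-0.85, SE 0.28), Fkbp14, a prolyl isomerase (-0.76, SE 0.18), and P3h4, a part of the lysine hydroxylation complex (-0.72, SE 0.22). P4ha2, a prolyl hydroxylase subunit, was higher (0.87, SE 0.16, adjusted p = 0.00187). The Fkbp14 call was lost without adult islet replicate 1 (adjusted p = 0.0726). The others were lost without either adult array, Serpinh1 also without day 0 replicate 1 or 2 and P3h4 also without day 0 replicate 3 (highest adjusted p 0.159 and 0.154), while that of P4ha2 held throughout. Against day 4, 1 of 16 was lower in adult islets (Fkbp14, -0.69), where 6.94% of all genes were lower. At day 4 against day 0, 1 was higher (Mia3, a collagen export factor, at least 1.17-fold), where 5.4% of all genes were higher. Both were lost without any 1 of several arrays (highest adjusted p 0.252 and 0.219), either day 4 array among them. At day 0 against embryonic stem cells 3 were higher (all genes 26.6%), led by Fkbp14 (0.99) and P4hb (0.96), and 5 lower (all genes 22.8%), led by Crtap (-1.45), P4ha2 (-1.26) and Colgalt1 (-0.79). The P4hb call was lost after cyclic loess (adjusted p = 0.109) and that of Plod2, among the 5, without embryonic stem cell replicate 2 (adjusted p = 0.144).

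Among 7 measured genes of procollagen processing and cross-linking, Pcolce, which enhances removal of the C-terminal propeptide, was not above background in adult islets. Its values were 8.14 and 8.24 at day 4 and 7.07 and 7.15 in adult islets, so it was at least 1.93-fold lower (adjusted p = 0.00121, held in all 23 alternatives). Loxl2, a lysyl oxidase that acts on type IV collagen, was higher in adult islets than at day 0 (0.53, SE 0.11, adjusted p = 0.00483). Loxl1, a lysyl oxidase of elastic fibres, was lower (-1.72, SE 0.46, adjusted p = 0.0139), a call lost without either adult array. Bmp1, the procollagen C-proteinase, was higher at day 0 than in embryonic stem cells (2.45, SE 0.24, adjusted p = 1.07e-05), where Pcolce2 (-1.95) and Pcolce (-1.24) were lower. Of 6 fibril partners, elastin (Eln) rose by 2.27 from day 0 to day 4 (SE 0.57, adjusted p = 0.0281), with 7.76, 7.69, 7.32 and 8.13 at day 0 and 10.31 and 9.68 at day 4. It was not above background in adult islets (7.12 and 7.17), at least 6.77-fold lower than at day 4 (adjusted p = 0.0146). Over all genes 5.4% were higher in the first of these comparisons and 6.94% lower in the second. Both elastin calls were lost without either day 4 array, the first also without day 0 replicate 2 or 3 and the second also without either adult array (highest adjusted p 0.246 and 0.116).

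Of 12 measured partners of basement membrane (laminins, nidogens, perlecan, agrin and others), 7 were lower and 0 higher at day 0 than in embryonic stem cells, where 22.8% of all genes were lower and 26.6% higher. Of the 7, Lamb2 was lost without embryonic stem cell replicate 1 (adjusted p = 0.0558) and Sparc in 8 alternatives, among them without either embryonic stem cell array and without day 0 replicate 2 or 3 (up to 0.148). The laminin chain Lama1 (-3.06, SE 0.31), nidogen 2, Nid2 (-2.73, SE 0.28), and perlecan, Hspg2 (-2.34, SE 0.38), were the farthest, and Col4a1 (-0.08) and Col4a2 (-0.65) of the same comparison did not pass. Agrin, Agrn, was lower in adult islets than at day 0 (-1.37, SE 0.27, adjusted p = 0.00293), as was the laminin chain Lamb1 (at least 1.29-fold, lost without either adult array, adjusted p up to 0.174). At day 4 against day 0 none of the 12 passed (all genes 5.4% higher, 6.06% lower), with a median of -0.10.

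Of 6 collagen receptors, Ddr1, a receptor tyrosine kinase, was higher at day 0 than in embryonic stem cells (2.52, SE 0.27, adjusted p = 1.76e-05). Integrin alpha 3, Itga3, rose at day 1 (0.87, SE 0.19, adjusted p = 0.0254), and Itga6 was lower in adult islets than at day 0 (-0.60, SE 0.17, adjusted p = 0.0178). Over all genes 26.6% were higher in the first of these comparisons, 2% in the second, and 19.4% were lower in the third. The Itga3 call was lost without any one of day 0 replicates 1, 2 and 4 and day 1 replicates 2 and 3, and the Itga6 call without either adult array (highest adjusted p 0.0963 and 0.131). Of 9 genes of collagen degradation, a list that also holds inhibitors of it, 4 were higher in adult islets than at day 0 and 1 lower. There 14.7% of all genes were higher and 19.4% lower. The matrix protease inhibitor Timp3 (1.98, SE 0.34, adjusted p = 0.00124) and cathepsin K, Ctsk (1.36, SE 0.34, adjusted p = 0.00966), were higher. So were Mmp13, a collagenase (at least 2.67-fold), and Timp1, an inhibitor like Timp3 (0.94, SE 0.27). Timp3 held throughout, Ctsk was lost without adult islet replicate 1 (adjusted p = 0.103), and Mmp13 and Timp1 without either adult array (up to 0.143 and 0.168). The lower one was Fap, a fibroblast protease, which was above background on the 4 day 0 arrays (7.29 to 7.73) and on no other array, so it was tested only because of that group. Macrophage markers had a higher mean level in adult islets than in the progenitor groups. The mean log2 level of 4 measured markers of 8 listed was 8.07 and 8.79 in adult islets and 7.36 to 7.90 at day 0. It was 7.06 to 7.33 at day 1 and 7.13 and 7.11 at day 4. Of the 4, 1, Cd14, was called higher in adult islets than at day 0. Elsewhere the markers and the list went apart. In embryonic stem cells the degradation genes had a mean of 8.81, above the 8.47 of adult islets, and the markers 7.50, below their 8.43. From day 0 to day 1 the degradation genes went from 8.04 to 8.14 and the markers from 7.53 to 7.18. The defining markers Ptprc and Itgam were not above background on any array. The part of macrophages in these values was not tested.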

How the data were processed

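The deposited table holds log2 intensities of 25697 probes on 13 arrays. Normalization between arrays was inferred from the values (array medians 7.15 to 7.18), and base 2 from the range, 6.73 to 15.20. The sources used here state neither. Per the labels' protocols, Trizol RNA was labelled with biotin (Illumina TotalPrep). A table of signals with 13 columns was not used, because no column name matches a sample. GEO's platform annotation named 1 gene for 23978 probes and none for 1719. A gene was tested if its brightest probe exceeded the background level (mode 6.98 plus 5 times the SD of 0.052 below the mode) on at least 2 arrays. Group means were fitted with limma 3.58.1 in R 4.3.3 (lmFit and eBayes, all 13 arrays, 8 residual and 2.94 prior degrees of freedom), with p adjusted by Benjamini-Hochberg over 10363 genes in each of 7 comparisons and a threshold of 0.05. Differences are log2. "At least N-fold" sets a group with no array above background at that level. The number of arrays limits the precision. Named were 9 measured chains fixed by name, further chains called with a difference of at least 1, and up to 3 rises and falls per partner list. Col15a1 and Col2a1 were added for their calls. Members, lists and rules were chosen with earlier results of these data known. Deviations from the group means correlated over 0.1 in 3 of 21 same-numbered pairs of arrays from different groups and in 6 of 45 others. The highest were 0.29 (replicate 1 of day 0 and day 1) and 0.55 (day 0 replicate 3 with day 1 replicate 2). In groups of 2 arrays the deviations mirror each other, so this check cannot exclude a pairing. No pairing was fitted in the main model, because the labels do not state one.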

Additional observations from a re-analysis of the deposited data

Results flagged for a closer look

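Col9a2 at day 0 was flagged because 1 of the 4 arrays lay far from the rest: replicate 4 was at 10.34 (10.3352 before rounding), while the other 3 were at 10.86 to 10.95. Its gap to the nearest array was 0.851 of the group's range, above Dixon's critical value for 4 samples. Of 24 collagen genes tested this way 1 was flagged, and chance flags about 1 in 20 groups. The same array was highest at day 0 for 11 of the 24 chains. Without it, the 3 calls of Col9a2 against adult islets and embryonic stem cells held, as did those at day 1 and day 4 against day 0.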

How the results depend on the processing

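Of 17 collagen calls, 6 held in all 23 alternatives (leaving out each array in turn and jointly day 0 replicate 3 with day 1 replicate 2, filter, scaling, probe, block, background and variance choices), 11 were lost in at least 1, and none changed sign. Day 1 against day 0 had 2 calls. After cyclic loess or with the replicate block 1 was left (Col9a2), without a filter or after background subtraction both were lost and 1 other, Col4a5, passed, and 0 passed with only the arrays of the groups compared. Day 4 against day 0 had 3, and 1 without a filter. Adult islets against day 4 had 1, and 9 with only their own arrays. Adult islets against embryonic stem cells had 1, and 2 with only their own arrays, with an intensity trend or after background subtraction. With arrays left out the counts ran from 0 to 2 (day 1 against day 0), 0 to 1 (day 4 against day 1), 0 to 4 (day 4 against day 0), 1 to 2 (adult islets against day 4), 2 to 6 (adult islets against day 0), 3 to 5 (day 0 against embryonic stem cells) and 1 to 2 (adult islets against these cells). Over all genes the replicate block called 235 at day 1 against day 0 (452 without it), 23 at day 4 against day 1 (161) and 574 at day 4 against day 0 (1188). Fitting only the arrays compared called 168, 14 and, for adult islets against day 4, 4065 (1500). With the replicate block Col5a1 was at 0.34 and Col6a1 at 0.0233 in day 4 against day 0, signs opposite to those above. In the same comparison, with arrays left out, Col1a1 ran from -0.16 to 0.27 (main value 0.05), Col1a2 from -0.50 to 0.0231 and Col5a1 from -0.50 to 0.40. The causes were not tested. What the replicate numbers stand for is not stated. Same-numbered pairs had a median correlation of -0.04 and others 0.02, which cannot settle whether the numbers pair arrays. Of 106 calls of partner, endothelial and mesenchyme genes, 53 held in all alternatives run for them and none changed sign. Scaling moved no array median by more than 0.0228 log2 units, and chains near background can hide changes that these arrays do not resolve.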
